A study of Mus musculus with 14 samples.

Results

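The 7 libraries described here are the knockout (KO) libraries among the 14 libraries of the study, chosen from the raw count table by genotype and set alone, with no use of any measured value. Each holds mRNA of retinal pigment epithelium (RPE) from 1 male C57BL/6J-background mouse of 3 months that carried Best1-Cre+/- and Clic4 f/f, a pair of alleles that removes Clic4 in the RPE. The study sequenced KO mice in 3 sets, each beside its own control genotype: 3 KO libraries beside C57BL6/J wild type (the WT set), 2 beside Clic4 f/f without Cre (the Ctrl set) and 2 beside Best1-Cre+/- without the floxed allele (the CreCtrl set). No control library entered any value below. Since all 7 mice had 1 genotype, sex and age, the comparison asks how far KO libraries differ from set to set. Best1-Cre is driven by an RPE promoter, so Clic4 stays intact in other cells that a preparation may hold. The RPE was shaken off the eyecup after hyaluronidase and trypsin, with the retina removed first and both eyes of a mouse pooled.

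The RPE is a pigmented monolayer between the photoreceptors and the choroid, the vascular layer behind the retina. It recycles visual chromophore, engulfs shed photoreceptor outer segments, and carries ions, lactate and glucose between the retina and the blood. In the opened eye it touches rods on one side and choroidal vessels, fibroblasts and immune cells on the other, and the cup ends near the ciliary body and the ocular surface epithelium. Clic4 encodes a chloride intracellular channel family protein.

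Depth was 16040454 to 16370963 counts in the 3 WT-set KO libraries, 16645404 and 18089350 in the 2 Ctrl-set KO libraries, and 26134166 and 32384166 in the 2 CreCtrl-set KO libraries. A floor of 3 counts therefore stood at 0.0926 to 0.187 CPM (counts scaled to the library total) per library, which covers counting error only. All levels below are CPM scaled by TMM (trimmed mean of M values), and values of the 7 libraries are given in the order WT set KO 1, 2 and 3, Ctrl set KO 1 and 2, CreCtrl set KO 1 and 2. A gene was called where edgeR's quasi-likelihood test gave a Benjamini-Hochberg adjusted p under 0.05 and the fold change was above 1.5. Everything that changed from set to set, such as handling or sequencing run, cannot be told apart from the set itself.

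Clic4 (chr4:135213969-135272814, minus strand, GRCm38) was counted in all 7 libraries. Its level was 29.8, 20.6 and 16.4 CPM in the WT-set KO libraries, 9.06 and 31.4 in the Ctrl-set KO libraries, and 12.6 and 27.7 in the CreCtrl-set KO libraries. The 3 sets overlapped, and the spread within a set was as wide as that between sets. The WT set differed from the other sets by 0.14 ± 0.43 (log2, SE, n = 3 and 4; adjusted p = 0.893 in edgeR's quasi-likelihood test), with a sign that turned without WT-set KO 1 (-0.13), Ctrl-set KO 1 (-0.1) or CreCtrl-set KO 1 (-0.03). The counts cover the whole gene, so residual transcript from recombined and from intact alleles cannot be told apart.

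Most of the genes called lower in the Ctrl-set KO libraries than in the WT-set or the CreCtrl-set KO libraries had coding sequence that also lies elsewhere in the genome as a processed pseudogene, an intronless copy made from a spliced mRNA. The sequences below give examples of such coding stretches and a counterpart, 50 bases each, the length of 1 sequenced read end. The examples were picked for their many matches in processed pseudogenes. Counts are per gene, so the part of these stretches in the difference was not tested. They come from the GRCm38 reference, on the coding (minus) strand of each gene. The Gapdh stretch (chr6:125162898-125162947) is found letter for letter in 80 annotated processed pseudogenes, the Rps7 stretch (chr12:28631695-28631744) in 7 and the Actg1 stretch (chr11:120347637-120347686) in 6. The Actb stretch (chr5:142905238-142905287) is the counterpart of the Actg1 stretch, with the 8 bases that differ from Actg1 in capitals. The Actg1 stretch was chosen among those whose Actb counterpart is in 0 processed pseudogenes, so that 0 follows from the choice.
Gapdh: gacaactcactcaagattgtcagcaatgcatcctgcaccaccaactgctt
Rps7: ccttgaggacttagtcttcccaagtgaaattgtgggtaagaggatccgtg
Actg1: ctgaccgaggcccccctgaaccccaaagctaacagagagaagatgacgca
Actb: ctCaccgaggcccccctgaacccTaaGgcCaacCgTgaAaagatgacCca

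Over their whole coding sequence, 94.2% of the 50-base windows of Gapdh, 98.5% of those of Actg1, 95.3% of those of Rps7 and 18.3% of those of Actb recurred in an annotated processed pseudogene. Gapdh (chr6:125161715-125166467), a glycolytic enzyme used in many tissues as a reference transcript, stood at 888, 925 and 866 CPM in the WT-set KO libraries and at 771 and 746 CPM in the CreCtrl-set KO libraries. In the Ctrl-set KO libraries it stood at 3.87 and 7.64 CPM, from 64 and 138 counts. The Ctrl set was lower than the CreCtrl set by -7.04 ± 0.29 (log2, SE, n = 2 and 2; edgeR adjusted p = 6.29e-07). Actg1, cytoplasmic gamma-actin, read 191, 237 and 180 CPM, then 3.02 and 1.61, then 174 and 193 (-6.32 ± 0.29, adjusted p = 1.32e-06). Rps7, a protein of the small ribosomal subunit, read 104, 116 and 90.5 CPM, then 0.544 and 0, then 71.1 and 77.7 (-8.12 ± 0.51, adjusted p = 1.54e-05). For each of the 3 genes, the Ctrl-set KO libraries were far below all 5 others, which stood near each other. Actb, the beta-actin paralog of Actg1, read 1208, 1328 and 1126 CPM, then 774 and 1042, then 888 and 804, and its difference between the Ctrl and CreCtrl sets was 0.10 ± 0.16 (adjusted p = 0.992), of either sign (-0.15 without Ctrl-set KO 2).

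Between the Ctrl and CreCtrl sets, 266 of 15616 genes tested were called (1.7%), of which 252 were lower (1.61%) and 14 higher (0.0897%) in the Ctrl set. More than 10% of the coding windows recurred in a processed pseudogene for 220 of the 252 genes called lower (87.3%) and for 5.78% of all genes tested. The median log2 difference fell with that share, from 0.01 over 12199 genes with no such window, with 9 called lower, to -2.32 over 129 genes with more than 90% of windows copied, with 92 called lower. Genes between these ends had intermediate medians of -0.07, -0.24, -0.51 and -1.07. In the WT set against the Ctrl set, 943 of 15616 genes were called (6.04%), 544 of them higher in the WT set (3.48%), and 54.6% of those 544 had more than 10% of their windows copied. In the WT set against the CreCtrl set, 232 genes were called (1.49%), 219 of them lower (1.4%). The Ctrl-set libraries entered this contrast only through the shared filter, scaling and spread. With only these 2 sets fitted, 432 genes were called. Of the 129 genes with more than 90% copied windows, 0 were among the 232 calls, near the share over all genes, with a median of 0.16. These 3 comparisons share libraries. Without genes of more than 10% copied windows, the Ctrl set against the CreCtrl set gave 22 calls (909 genes at an unadjusted p under 0.05) and the WT set against the Ctrl set gave 383. With single libraries left out, the count between the Ctrl and CreCtrl sets rose to 536 without Ctrl-set KO 1, and that between the WT and Ctrl sets fell to 430 without WT-set KO 1 and 485 without WT-set KO 2. The count between the WT and CreCtrl sets fell to 0 in edgeR without any 1 WT-set library or CreCtrl-set KO 2 (1141 to 2717 genes at an unadjusted p under 0.05), fell to 75 without CreCtrl-set KO 1, and rose to 533 and 567 without Ctrl-set KO 1 and 2.

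**Figure D1:**
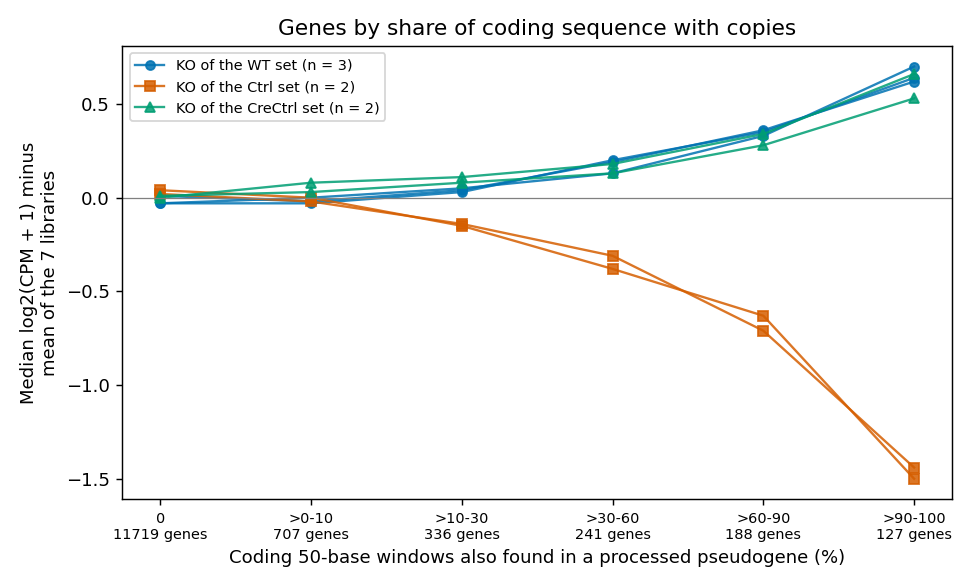
Median over genes of log2(CPM + 1) minus the gene's mean over the 7 KO libraries (y axis), for genes grouped by the percentage of their 50-base coding windows found in a processed pseudogene (x axis, with the number of genes per group), 1 line per library. Over the 127 genes above 90%, the 2 Ctrl-set KO libraries sit at -1.5 and -1.44 and the other 5 between 0.53 and 0.7, while all 7 lie between -0.03 and 0.04 over the 11719 genes at 0%.

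Genes above 90% copied took 1.19% to 1.3% of all counts in the WT-set KO libraries, 1.06% and 1.07% in the CreCtrl-set KO libraries, and 0.214% and 0.29% in the Ctrl-set KO libraries. The processed pseudogenes themselves did not hold more counts in the Ctrl set. Summed over all annotated processed pseudogenes, the level was 878, 737 and 808 CPM in the WT-set KO libraries, 349 and 488 in the Ctrl-set KO libraries, and 754 and 510 in the CreCtrl-set KO libraries. Processed pseudogenes as a whole were thus also lowest in the Ctrl set, though Ctrl-set KO 2 (488 CPM) was near CreCtrl-set KO 2 (510 CPM). The copies of the affected genes were not summed apart from the rest. Unprocessed pseudogenes were likewise lowest in the Ctrl set, at 279 and 380 CPM against 563 to 1302 elsewhere. How reads that match several places were treated in each set is not given in the sources used here, and its part in the difference was not tested.

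The gene groups that carried this difference were those rich in copied genes. Of the 79 cytosolic ribosomal proteins, the structural proteins of the translating ribosome, 66 were called lower in the Ctrl set than in the CreCtrl set and 0 higher, with a median of -2.83 beside -0.01 over all genes tested and 1.61% of them called lower. Their summed level was 12559, 13341 and 10936 CPM in the WT set, 2076 and 2692 in the Ctrl set and 9162 and 9035 in the CreCtrl set. Of the 74 ribosomal proteins with more than 10% copied windows, 64 were called lower, with a median of -3.13. Of the 5 with at most 10%, 2 were called lower, with a median of -0.37, among them Rpl41 at -2.15 ± 0.34 (adjusted p = 0.00903), which was not called with only the 2 sets fitted. Rpl8 and Rpl4 of the large subunit differed by -0.37 and -0.24 and Rplp1 of the ribosomal stalk by -0.50, none of them called, the last with a turned sign (0.2) after correction for GC content and length.

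Glycolytic enzymes gave 5 calls of 16, all lower in the Ctrl set and all among the 10 with more than 10% copied windows, beside 1.61% called lower over all genes. They were Gapdh, Pgk1, Pgam1, Eno1 and Pkm. Pkm, which makes pyruvate, read 773, 762 and 798 CPM, then 464 and 407, then 683 and 697 (-0.67 ± 0.12, adjusted p = 0.02, lost in 9 of 15 alternatives). Aldoa, aldolase A, with 10.7% of windows copied, read 2735, 2918 and 2637 CPM, then 2030 and 2043, then 2371 and 2403 (-0.23, not called). Of 11 heat shock genes, 5 were called lower, all among the 6 with more than 10% copied windows, among them the chaperone Hsp90aa1 (-2.18 ± 0.15, adjusted p = 2.6e-05). Its level was 763, 871 and 912 CPM in the WT set, 244 and 229 in the Ctrl set and 969 and 1174 in the CreCtrl set. The chaperone Hspa8, at 90.7% copied, had a difference of -1.45 ± 0.33 that was not called (adjusted p = 0.0801), but was with either Ctrl-set KO library alone.

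Among respiratory chain genes, 4 of 37 subunits of complex I were called lower and 1 higher, and 10 of 38 subunits of complexes II to V were called lower, beside 1.61% lower and 0.0897% higher over all genes tested. All 4 of the complex I calls that were lower, and 9 of those 10, had more than 10% copied windows. Proteasome core subunits gave 4 lower calls of 14 and antioxidant genes 3 of 22, against the same 1.61%, with medians of -0.50 and -0.09. Gpx4, which reduces lipid peroxides in membranes, read 1794, 2007 and 1749 CPM, then 291 and 312, then 1498 and 1414 (-2.28 ± 0.12, adjusted p = 4.45e-06). Eef1a1, the elongation factor that brings aminoacyl-tRNA to the ribosome, read 1666, 1674 and 1581 CPM, then 490 and 434, then 1520 and 1819 (-1.86 ± 0.13, adjusted p = 3.69e-05). The calls of Gapdh, Actg1, Rps7, Hsp90aa1, Gpx4 and Eef1a1 held in every alternative in which the gene was tested.

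A few genes outside the copied class were higher in the Ctrl-set KO libraries. Mobp, a protein of central myelin, read 0.0613, 0.0619 and 0 CPM in the WT set, 49.7 and 14.7 in the Ctrl set and 0 and 0.126 in the CreCtrl set. Both Ctrl-set libraries were above the other 5, all of which were within the floor of 3 counts apart from CreCtrl-set KO 2 with its 0.126 CPM. The fitted difference of 8.76 ± 0.98 depends on the prior count at such levels (adjusted p = 0.000978). Mbp, another myelin protein, read 66.7, 60.3 and 63.6 CPM, then 245 and 106, then 66.6 and 65.8. It was not called against the CreCtrl set (1.40 ± 0.31, adjusted p = 0.0687), but was in 4 of 16 alternatives. Over these its difference ran from 0.63 to 1.86. Trf, transferrin, which carries iron and is made by RPE and by oligodendrocytes, read 977, 1137 and 789 CPM, then 2447 and 2088, then 825 and 685 (1.58 ± 0.18, adjusted p = 0.0012). The calls of Mobp and Trf held in every alternative in which the gene was tested. Npc1, which exports cholesterol from lysosomes (1.19 ± 0.20, adjusted p = 0.0129), Fzd8, a Wnt receptor (1.01 ± 0.15, adjusted p = 0.00733), and the synaptic Snap25 (2.78 ± 0.54, adjusted p = 0.0325) were also called higher, beside 0.0897% of all genes. All 3 lost the call where genes with copied coding sequence were removed from the fit. Over all alternatives the difference ran from 0.88 to 1.39 for Npc1, from 0.86 to 1.2 for Fzd8 and from 2.41 to 3.28 for Snap25, with adjusted p reaching 0.108, 0.0887 and 0.304. Fzd8 and Npc1 also lost it with only the 2 sets fitted, Npc1 under the replicate block, Fzd8 without CreCtrl-set KO 1, Npc1 without either CreCtrl-set library or Ctrl-set KO 2, and Snap25 without any of 5 single libraries. The part of other cells in these differences was not tested.

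The WT-set KO libraries were set against the other 4 together, which is the comparison with the most libraries. Of 14792 genes tested, 511 were called (3.45%), 108 higher (0.73%) and 403 lower (2.72%) in the WT set, and 3128 had an unadjusted p under 0.05. In 3396 genes (23%) the 3 WT-set values did not overlap the other 4, and this included all 511 called genes. The count rested on single libraries. It was 0 without WT-set KO 1 and 0 without WT-set KO 2 (2741 and 2737 genes at an unadjusted p under 0.05), 129 without WT-set KO 3, 81 without Ctrl-set KO 1 and 49 without CreCtrl-set KO 2. DESeq2 on all 7 libraries called 952, of which 384 were higher in the WT set. The calls named in the next paragraphs were therefore lost without either of those libraries, while the 30 genes with the largest differences kept their direction.

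The calls were sorted by base composition and length. The median GC content, taken from each gene's longest transcript, was 41.2% over the genes called lower in the WT set. It was 53.4% over those called higher and 49.8% over all genes tested. The median exon length was 6947 bases over those called lower, 2183 over those called higher and 4266 over all. By GC content, the median log2 difference rose from -0.45 over 868 genes of at most 40% GC, 133 of them called lower, through -0.24, -0.06 and 0.09 to 0.17 over 3347 genes above 55%. By length it fell from 0.41 over 1430 genes of at most 1.5 kb to -0.26 over 802 genes above 12 kb. The same order held within each set contrast that includes the WT set. Against the Ctrl set the medians ran from -0.41 to 0.16 by GC content, and against the CreCtrl set from -0.47 to 0.21, whereas between the Ctrl and CreCtrl sets they ran from -0.06 to 0.02. After a smooth correction for GC content and exon length within each library, 0 genes were called by edgeR's quasi-likelihood test between the WT set and the other sets (2058 at an unadjusted p under 0.05).

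**Figure D2:**
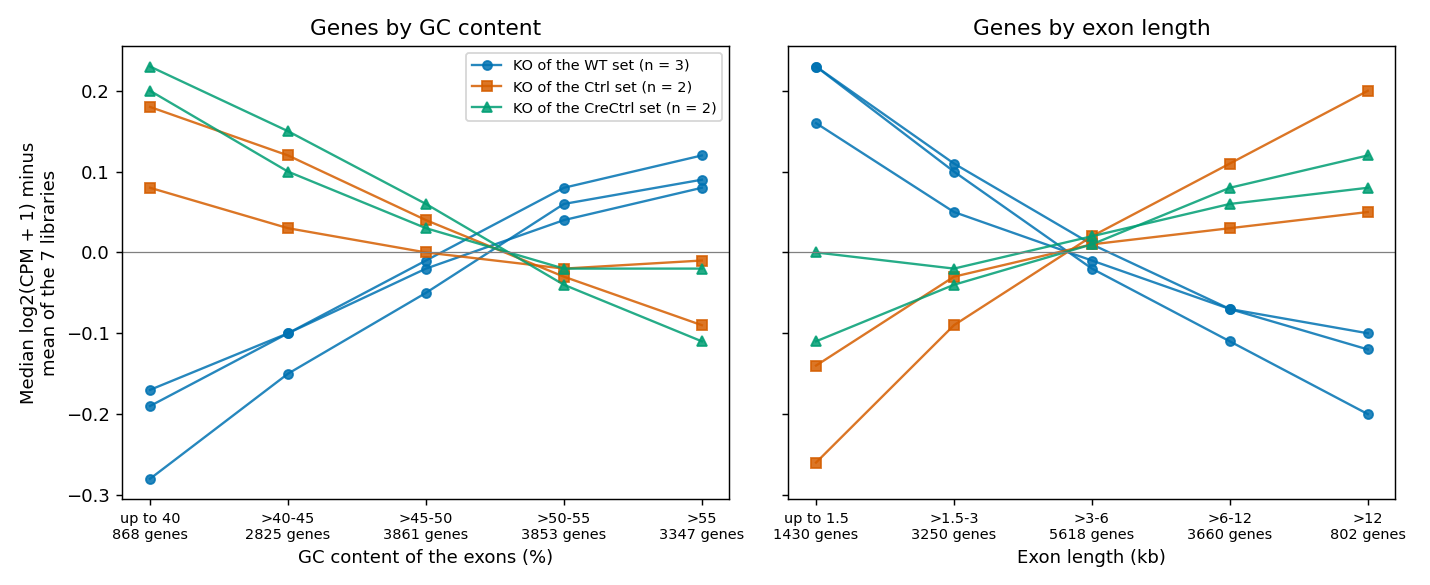
Median over genes of log2(CPM + 1) minus the gene's mean over the 7 KO libraries (y axis), 1 line per library. Genes are grouped by GC content of the longest transcript (left, %, where the axis names the exons) and by exon length (right, kb). The 3 WT-set KO libraries run from -0.28 to -0.17 in the lowest GC group up to 0.08 to 0.12 in the highest, and the other 4 from 0.08 to 0.23 down to -0.11 to -0.01.

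Among called protein-coding genes with a mean of at least 10 CPM (67 of the 108 called higher and 384 of the 403 called lower), the largest difference upward in the WT set was that of Asprv1, a protease of stratified epidermis, at 50.5, 34.4 and 5.62 CPM in the WT set, 0.845 and 0.996 in the Ctrl set and 4.44 and 0.757 in the CreCtrl set (4.07 ± 0.85, adjusted p = 0.0367). It moved in the same libraries as the surface-epithelium genes described further on. S100a6, a calcium-binding protein, read 43.5, 54.7 and 25.8 CPM against 3.74, 7.69, 7.17 and 8.36 (2.61 ± 0.32, adjusted p = 0.0116). Ddit4l, an inhibitor of mTOR signalling, read 25, 47.5 and 27 CPM against 7.07, 3.54, 7.29 and 5.49 (2.5 ± 0.31, adjusted p = 0.0121). Both were higher in each WT-set library than in any other by a wide margin. Aldh3a1, an aldehyde dehydrogenase abundant in corneal epithelium, read 19.7, 32.9 and 19.1 CPM against 3.56, 7.36, 6.6 and 4.92 (2.09 ± 0.30, adjusted p = 0.0155). Anxa2, a membrane-binding annexin, read 131, 138 and 89.4 CPM against 40.4, 37.3, 56 and 52.6 (1.36 ± 0.20, adjusted p = 0.0155).

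The other genes with the largest upward differences were the junction protein Jup (1.43), the actin-severing Gsn (1.34), the epithelial membrane protein Emp2 (1.57), the fibronectin-repeat protein Fndc1 (1.64), the interferon-induced Ifitm1 (2.51) and Ifitm3 (1.09), the cytochrome oxidase subunit Cox8b (1.08), the Akt inhibitor Phlda3 (1.07), the ribosomal protein paralog Rps27l (1.05) and the RNA polymerase subunit Polr2h (0.98). Their edgeR adjusted p ranged from 0.0289 to 0.0486. Ifitm1, Ifitm3, Rps27l and Polr2h have 13.5% to 32.7% of their coding windows in a processed pseudogene. Exons of Anxa2, Polr2h, Tmem263, Rab39b and Zbtb33, as of Gapdh, Aldoa and Npc1, overlap a gene on the other strand, and the strand setting of the counting is not given in the sources used here.

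The genes with the largest downward differences under the same limits were long or poor in GC, apart from Pcdhac2 at 49.8% GC. Itgb8 (chr12:119158022-119238802), an integrin subunit that activates latent TGF-beta, was the most abundant of them, with 1118, 1170 and 1372 CPM in the WT set, 3764 and 2639 in the Ctrl set and 3041 and 3473 in the CreCtrl set. All 3 WT-set values were below all 4 others, as the choice of these genes required, and the difference was -1.40 ± 0.14 (adjusted p = 0.0089). Its exons span 11060 bases, and its longest transcript has 40.4% GC. Ube3a, a ubiquitin ligase with 36.9% GC, read 52.1, 45.7 and 44 CPM against 127, 99.6, 109 and 131 (-1.30 ± 0.14, adjusted p = 0.0089), and overlaps antisense transcripts. Sh3bgrl, a small adaptor-like protein, read 39.1, 42.8 and 38.4 CPM against 101, 80.7, 95.4 and 108 (-1.27 ± 0.13, adjusted p = 0.0089). Naa30, an N-terminal acetyltransferase, read 16.2, 17.6 and 20.3 CPM against 44, 38.9, 41 and 46.3 (-1.24 ± 0.13, adjusted p = 0.0089). In these genes the WT-set libraries lay close together and the gap to the others exceeded the spread within either side.

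The remaining genes of the largest downward differences lay between -1.66 and -1.26 with adjusted p from 0.0116 to 0.0438. They were Zfp942, a zinc finger gene, Dlg2, a synaptic scaffold, the tyrosine phosphatase Ptpn4, the cadherins Pcdhac2 and Cdh19, Tmem263, the actin-binding Nebl, Triqk, the vesicle GTPase Rab39b, the methyl-DNA-binding Zbtb33 and the RNA-binding Trove2. Pcdhac2 shares exons with the other alpha protocadherins, so its counts are uncertain. Lamp2, a lysosomal membrane protein, was also called lower, with 240, 190 and 247 CPM against 465, 412, 433 and 470 (-0.98 ± 0.12, adjusted p = 0.0116) at 38.7% GC. After the GC and length correction the differences were -0.96 for Itgb8, -0.66 for Ube3a and -0.49 for Lamp2, and among the genes higher in the WT set 0.42 for Ifitm3 and 0.15 for Cox8b, none of them called.

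**Figure D3:**
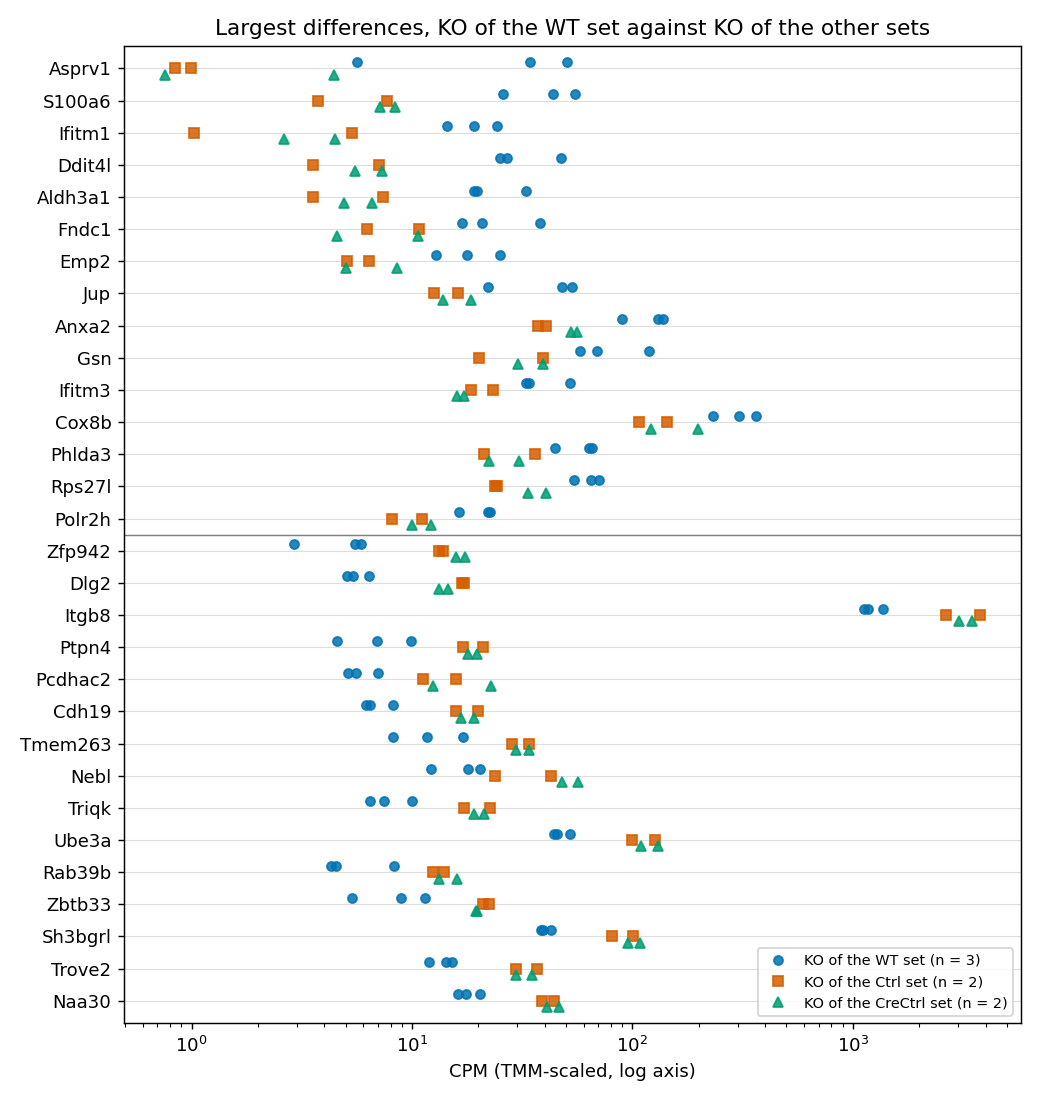
CPM on a log axis (x) for the 15 called genes with the largest differences upward (above the line) and the 15 with the largest downward (below it) in the WT-set KO libraries, 1 point per library, coloured by set. The 3 WT-set points lie on one side of the other 4 for every gene. This was a condition of the choice, and it held for all 511 called genes. Itgb8 stood at 1118 to 1372 CPM against 2639 to 3764.

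Nnt, the mitochondrial transhydrogenase in which C57BL/6J mice carry a partial deletion, read 86.3, 78.6 and 98.7 CPM in the WT set against 140, 121, 130 and 135 (-0.58 ± 0.11, adjusted p = 0.0332). The groups did not overlap, but the fold was below the limit of 1.5, and the gene was called where Ctrl-set KO 2 was left out (-0.62). Whether the counts come from the deleted exons was not tested. Respiratory subunits were mostly higher in the WT set than in the other sets, with 34 of 37 complex I genes and 35 of 38 genes of complexes II to V above 0, medians of 0.53 and 0.57, and 5 and 3 calls, all higher, beside 0.73% called higher over all genes. Against the CreCtrl set the medians were 0.38 and 0.35 with 0 called, beside 1.49% of all genes. Against the Ctrl set they were 0.61 and 0.71. There 19 and 22 were called higher, beside 3.48% of all genes, and 1 complex I gene lower. Over all 1430 genes with exons of at most 1.5 kb, the median against the other sets was 0.41. The part of exon length and copied sequence in the subunits' differences was not tested. Circadian genes gave 3 lower calls of 16 (Clock, Hlf and Bhlhe41), and sterol genes 2 lower of 24 (Hmgcs1, which feeds the mevalonate pathway, and the sterol carrier Stard4), beside 2.72% of all genes. Of 15 interferon-response genes, 3 were called higher (Ifitm3, Bst2 and Ifi27), beside 0.73% of all genes, but 7 lay above 0 and 8 below it, with a median of -0.04 and a lowest value of -1.11.

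Markers of surface epithelium separated the libraries most widely. The list of 8 corneal and conjunctival genes summed to 547, 856 and 436 CPM in the WT-set KO libraries, 14.1 and 9.3 in the Ctrl-set KO libraries, and 156 and 5.24 in the CreCtrl-set KO libraries. Krt5, a keratin of basal stratified epithelium, read 187 and 333 CPM in WT-set KO 1 and 2, with a WT-set mean of 223 ± 97 (SD, n = 3), then 3.62 and 0.554 in the Ctrl set and 51.8 and 0 in the CreCtrl set. Krt15, a limbal and basal keratin, read 183, 296 and 134 CPM, then 3.02 and 0.111, then 49.6 and 0. Krt4, a keratin of conjunctival and other mucosal epithelium, read 72.5, 64.1 and 67.2 CPM, then 0.0604 and 0.0554, then 20.3 and 0. All 3 WT-set libraries were high, CreCtrl-set KO 1 was intermediate, and the other 3 were low or at 0. Krt12, the keratin that marks differentiated corneal epithelium, was at 0 in all 3 WT-set libraries and at most at 1.22 CPM elsewhere. Of the 7 list genes tested in the WT set against the other sets, 7 were higher and 1, Aldh3a1, was called, with a median of 3.68 beside 0 over all genes and 0.73% of them called higher. Krt5 was not called (3.98 ± 1.53, adjusted p = 0.179), but was without CreCtrl-set KO 1 (7.46, adjusted p = 0.0278). Cdh1, the epithelial cadherin that such cells make, read 7.05, 13.7 and 2.87 CPM against 0.544, 0.111, 1.18 and 0.536 and was called (3.70). In these bulk samples more cells of a type and more RNA per cell cannot be told apart.

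Endothelial markers stood at 174, 121 and 80.9 CPM in the WT set, 35.9 and 61.9 in the Ctrl set and 60.2 and 55.8 in the CreCtrl set. All 12 were higher in the WT set than in the other sets, with a median of 1.46 beside 0 over all genes tested, and 2 were called, the junction proteins Pecam1 (2.02) and Esam (2.32), beside 0.73% called higher over all genes. Plvap, the diaphragm protein of fenestrated choriocapillaris, read 49.8, 37.6 and 25.4 CPM against 11.7, 28.5, 24.3 and 16.3 and was not called (0.90 ± 0.32, adjusted p = 0.154). Kdr, the VEGF receptor, read 19.5, 14.5 and 3.61 CPM against 9.6, 5.26, 10 and 7.82 (0.62 ± 0.50, adjusted p = 0.528). Stromal markers summed to 780 CPM in WT-set KO 1 and to 246 to 447 in the other 6. The collagen gene Col1a1 read 93.6 CPM in that library, 30.9 and 29.9 in the other WT-set libraries, 5.98 and 40.9 in the Ctrl set and 12.7 and 27.6 in the CreCtrl set. Of 12 stromal genes, 11 were higher in the WT set and none of them was called, beside 0.73% called higher over all genes. Ogn was called lower, as were 2.72% of all genes.

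Rod photoreceptor transcripts varied within the WT set as widely as between sets. The 15 genes summed to 1297, 379 and 2187 CPM in the WT set, 2166 and 2081 in the Ctrl set, and 635 and 545 in the CreCtrl set. Gnat1, the rod transducin subunit, read 220, 31.7 and 389 CPM, then 352 and 439, then 80.9 and 49.9. Sag, rod arrestin, read 78.1, 7.36 and 171 CPM, then 109 and 141, then 25.3 and 22.5. WT-set KO 2 was the lowest of the 7 and the Ctrl-set libraries were among the highest. All 15 genes were higher in the Ctrl set than in the CreCtrl set, with a median of 2.40 and 0 called by edgeR's quasi-likelihood test (log2 fold change of Gnat1 2.59 ± 0.82, adjusted p = 0.281, and of Sag 2.38 ± 0.94, adjusted p = 0.474). In that comparison 1352 of the 15616 genes tested had an unadjusted p under 0.05 and 1.7% were called. Rom1, a disc-rim protein on the rod list, stayed at 257 to 321 CPM in all 7 libraries. Without it the list ran from 120 CPM in WT-set KO 2 to 1865 in WT-set KO 3 and in Ctrl-set KO 1.

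Myeloid markers were high in 1 library. The 13 genes summed to 2627 CPM in Ctrl-set KO 2 and to 716 to 926 in the other 6, and without Csf1r, which was at 645 to 740 CPM in all 7, to 1982 CPM against 34 to 231. Lyz2, the macrophage lysozyme, read 109, 27.5 and 37.5 CPM in the WT set, 50.8 and 1271 in the Ctrl set, and 7.67 and 26.9 in the CreCtrl set. The complement gene C1qa (136 CPM against 4.9 to 24.5) and the macrophage marker Adgre1 (33.7 CPM against 0.978 to 2.91) were highest in the same library. So were the antigen-presenting Cd74 (190 CPM against 19.7 to 72) and the ferritin gene Fth1 (2891 CPM against 1210 to 1818). The scavenger receptor Cd36, which takes part in outer segment uptake, read 68.1 CPM there and 0.987 to 4.47 elsewhere. Between the Ctrl and CreCtrl sets all 13 myeloid genes were higher, with a median of 3.47 and 0 called (Lyz2 5.24 ± 1.34, adjusted p = 0.136), though Lyz2 was called without Ctrl-set KO 1. Over all genes tested in that comparison, 0.0897% were called higher. The difference of Fth1 was 0.50 over both Ctrl-set libraries, 0.95 without Ctrl-set KO 1 and -0.27 without Ctrl-set KO 2.

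Immediate-early genes, which respond within minutes to handling and other stimuli, also varied by library. The 21 genes summed to 2488, 1109 and 1110 CPM in the WT set, 559 and 2133 in the Ctrl set and 430 and 861 in the CreCtrl set. Fos read 302, 106 and 119 CPM, then 44 and 239, then 40.8 and 103. WT-set KO 1 and Ctrl-set KO 2 stood well above the other libraries of their sets. All 21 were higher in the WT set than in the other sets, with a median of 0.79. None was called, beside 0.73% called higher over all genes tested. Haemoglobin and other erythrocyte genes summed to 179, 130 and 163 CPM, then 74.7 and 200, then 74.4 and 25.1. Lens and skeletal muscle markers summed to at most 15.7 and 6.26 CPM, and mast cell markers to at most 4.43. Their part in the differences between sets was not tested.

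**Figure D4:**
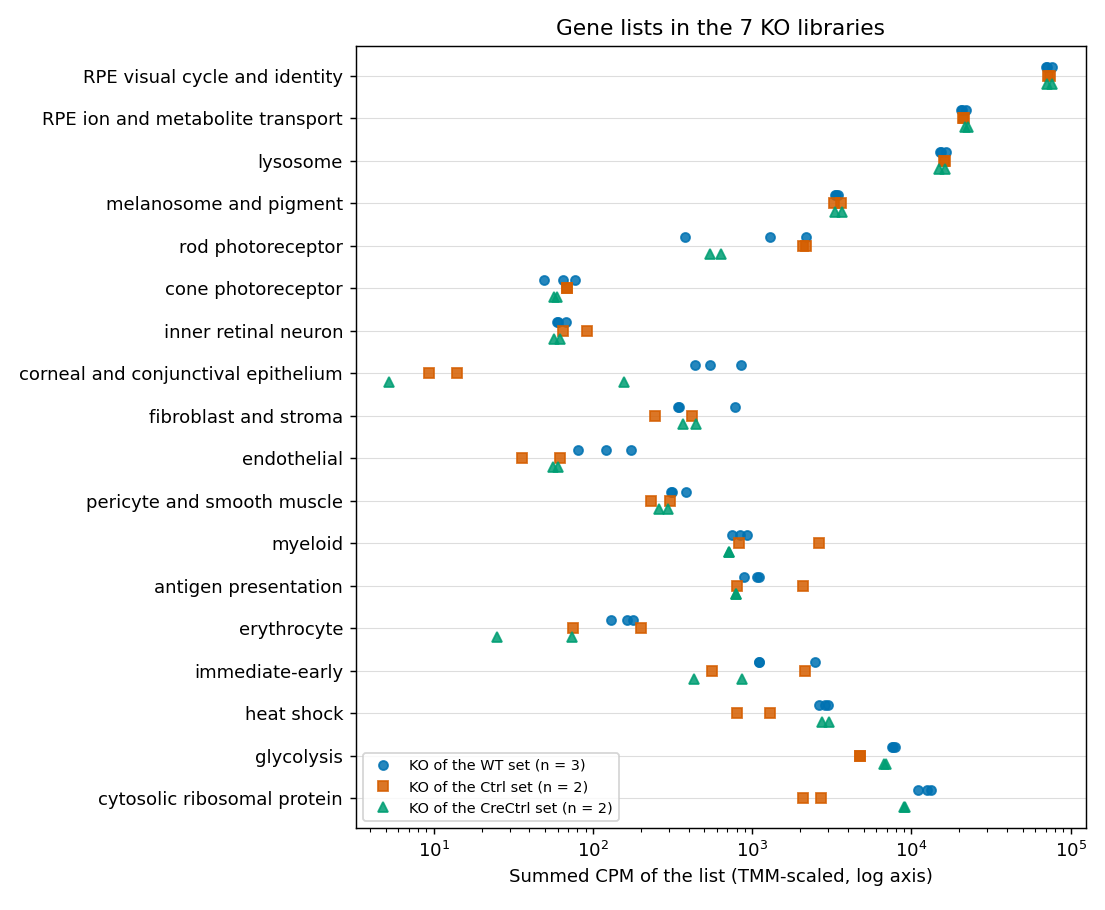
Summed CPM of 18 gene lists on a log axis (x), 1 point per KO library, coloured by set. The 4 lists at the top spread by at most 1.13-fold over the 7 libraries, while the corneal and conjunctival list spreads from 5.24 to 856 CPM and the ribosomal list from 2076 to 13341 CPM.

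Against this, the summed levels of the RPE's own transcripts were among the steadiest of the lists. The 14 genes of the visual cycle and RPE identity summed to 70079 to 76592 CPM, with the highest library 1.09-fold above the lowest. Ttr and Rgr, with means of 31649 and 16198 CPM, held most of that sum. The WT set was highest for Ttr and lowest for Rgr, which offset each other in the sum. One by one, 6 of the 14 were stable under the limit described below. The transport list spanned 20498 to 22493 CPM (1.10-fold), the lysosome list 14941 to 16437 (1.10-fold) and the melanosome list 3244 to 3676 (1.13-fold). Best1 itself, whose promoter drives the Cre, read only 1.1 to 2.6 CPM. Of the 14 RPE genes, 2 were called lower in the WT set than in the other sets, with a median of -0.27 over the list beside 2.72% called lower and a median of 0 over all genes tested. Lrat, which makes retinyl esters, read 1846, 2114 and 2099 CPM against 2749, 2659, 2975 and 3825 (-0.60), and Mitf, the pigment cell transcription factor, read 90.9, 91.3 and 95.5 CPM against 139 to 181 (-0.78). Pmel, the fibril protein of melanosomes, was called higher, at 250, 201 and 175 CPM against 138, 139, 143 and 116 (0.64), as 1 of 11 melanosome genes beside 0.73% of all genes. Between the Ctrl and CreCtrl sets, none of the 14 RPE genes, 11 melanosome genes or 15 transport genes tested was called in edgeR. With 1.7% of all genes called there (1352 genes at an unadjusted p under 0.05), a count of 0 in lists of this size is near the share over all genes.

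A transcript was taken as stable where its highest CPM over the 7 libraries was less than 1.5 times its lowest. That held for 3334 of 14760 genes with an exon length (22.6%), for 47 of the 100 genes with the highest level per length and for 10 of the top 20. Under a limit of 2 the count was 7538, and under a limit of 5 to 4 it was 532. The most abundant stable transcript per length was Ttr, transthyretin, the carrier of thyroxine and retinol-binding protein, at 26685 CPM per kb of exon. It read 33771, 37537 and 32432 CPM in the WT set, 26659 and 32135 in the Ctrl set and 28926 and 30083 in the CreCtrl set, so that the WT set was highest within a 1.41-fold range. Next came Rgr, an RPE opsin, at 3384 CPM per kb, with 14255, 14893 and 15476 CPM, then 17884 and 16035, then 16615 and 18225, a 1.28-fold range in which the WT set was lowest. Rlbp1, which carries 11-cis-retinal in the visual cycle, was the steadiest of the 20, with 5239, 5936 and 5590 CPM, then 5617 and 5046, then 5245 and 5850, a 1.18-fold range.

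Transport was represented among the top 20 stable transcripts by Bsg, the partner of monocarboxylate transporters (4364 to 5556 CPM), the carbonic anhydrase Car14 (1865 to 2251 CPM) and the glucose transporter Slc2a1 (2313 to 2844 CPM). Lysosomal members were Psap, the saposin precursor (5460 to 7896 CPM), the protease Ctsd (2574 to 3753 CPM) and Laptm4a. Clu, a secreted chaperone, held 7595 to 9182 CPM. Enpp2, which makes lysophosphatidic acid, held 5769 to 7359 CPM, and Tmem98, a membrane protein, 1870 to 2230 CPM. The rest were Arl6ip1 of the endoplasmic reticulum, the phospholipid carrier Pltp, Aldoa, the keratin Krt18, Basp1, glutamine synthetase Glul, Cltrn and Ezr, the ezrin of apical microvilli. Of the 20, 6 met the limit of 5 to 4. Leaving a library out can only keep or lower this ratio, so it could not move any of the 20 above the limit. Stable by this measure does not mean equal, since Arl6ip1 was at 4138, 4502 and 4095 CPM in the WT set and at 5371, 5557, 5035 and 5230 in the others.

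**Figure D5:**
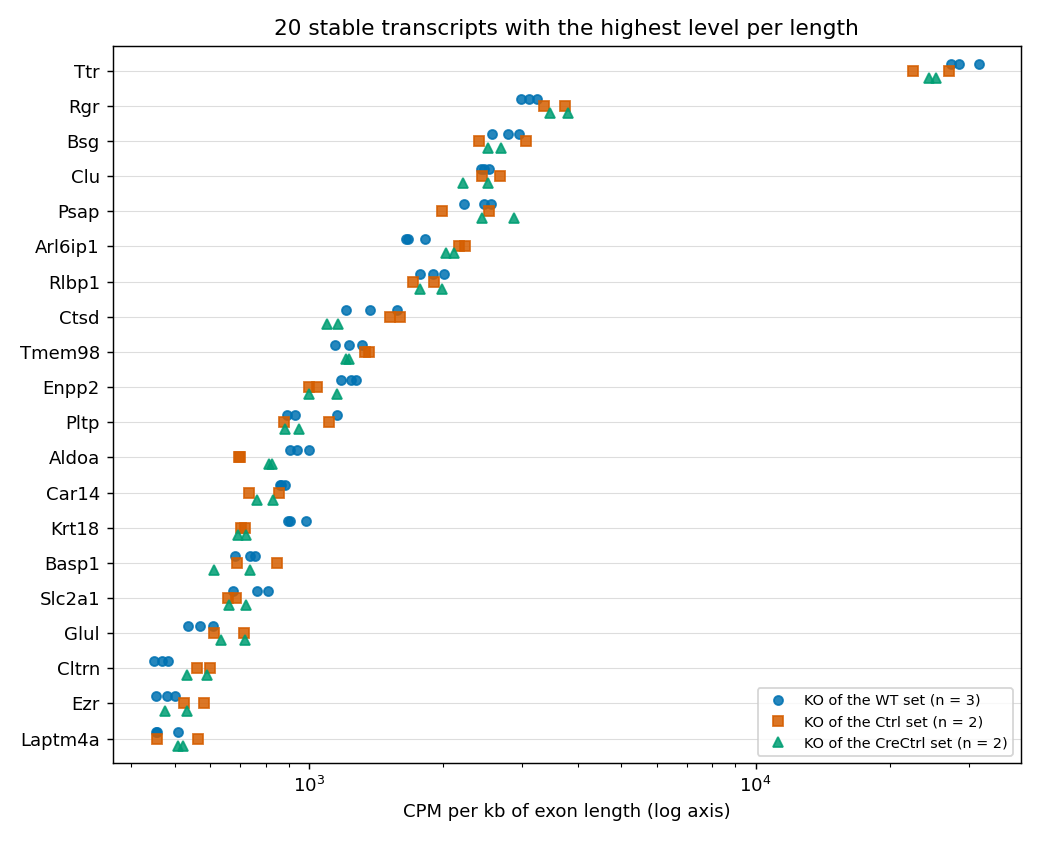
CPM per kb of exon length on a log axis (x) for the 20 stable transcripts with the highest level per length, 1 point per KO library, coloured by set. Ttr stands alone at 26685 CPM per kb on average, and the other 19 have means between 496 and 3384, with the 7 points of each transcript within 1.46-fold.

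Several of the most abundant RPE transcripts missed the limit. Ptgds, prostaglandin D synthase and the most abundant per length, read 52645, 56478 and 50276 CPM in the WT set, 40399 and 41851 in the Ctrl set and 39077 and 34570 in the CreCtrl set, a 1.63-fold range in which the WT set was highest. Cst3, cystatin C (1.62-fold), and Apoe, a lipid carrier (1.56-fold), were likewise highest in the WT set. Rpe65, the isomerase of the visual cycle, read 4258, 4611 and 4586 CPM, then 6105 and 3647, then 5054 and 6156. Its range was 1.69-fold, with Ctrl-set KO 1 near the top and Ctrl-set KO 2 at the bottom of the 7, and the difference between the WT set and the others was within their spread (-0.22 ± 0.17, adjusted p = 0.497). Rdh5, which oxidises 11-cis-retinol (1.87-fold), and the metallothioneins Mt1 (1.96-fold) and Mt2 (1.6-fold) also missed the limit. Gm42418, a transcript known to overlap ribosomal RNA sequence, ranged 8.59-fold, from 2188 to 18795 CPM. Just inside and just outside the limit were Tyrp1, the melanosomal oxidase (1.5-fold to this rounding), and Slc16a8, the RPE lactate transporter (1.53-fold). Of the RPE lists, 6 of 14 visual cycle and identity genes, 4 of 11 melanosome genes and 9 of 15 transport genes tested were stable. Beside these stand 22.6% of all genes and 47 of the 100 genes with the highest level per length.

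Compared pair by pair over 9163 genes, the median absolute log2 difference was 0.181 to 0.223 between the WT-set libraries, 0.249 between the Ctrl-set libraries and 0.143 between the CreCtrl-set libraries. Between sets it was 0.287 to 0.342 for the WT and Ctrl sets, 0.228 to 0.305 for the WT and CreCtrl sets, and 0.148 to 0.279 for the Ctrl and CreCtrl sets. Ctrl-set KO 1 was nearer to both CreCtrl-set libraries (0.152 and 0.148) than to Ctrl-set KO 2 (0.249). The WT-set libraries were each nearer to one another than to any library of the other sets, by margins that were small for CreCtrl-set KO 1, at 0.228 to 0.267.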

How the data were processed

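mRNA of RPE was sequenced from paired ends of 50 cycles with a stranded TruSeq kit. According to the methods, reads were aligned to GRCm38 with STAR 2.5.2, and the deposited counts are raw read counts per gene, made by the authors. The submitters' processing notes also name bcl2fastq 2.19, Cufflinks 2.1.1 and HTSeq 0.11.2. The annotation release, strand setting and treatment of multiply matching reads are not given in the sources used here. The FPKM table and all control columns were not used.

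KO libraries were assigned to sets by their titles. The set of each KO library follows the style of its title, which it shares with the control libraries of that set. The 7 KO columns (42687 genes, 18091 of them at 0 in all 7) were normalised by TMM, filtered with filterByExpr and tested with edgeR 4.0.16 (glmQLFit, glmQLFTest, R 4.3.3, limma 3.58.1) with Benjamini-Hochberg adjustment over all genes tested. The WT set was fitted against the other sets as 2 groups, and the set pairs in 1 fit of 3 groups. Genes were called at an adjusted p under 0.05 and a fold change above 1.5. DESeq2 1.42.0, other size factors, other filters, a replicate block, each library left out and, chosen after seeing the data, a GC and length correction and removal of copied genes were the alternatives. Each animal gave 1 library. The scripts were checked on simulated counts.

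Exon length, GC content and 50-base coding windows came from the GENCODE M21 annotation and the GRCm38 sequence, which matched 42329 of the 42687 gene identifiers. GC content was that of the longest transcript of a gene, while exon length covered all its exons. A window counted as copied where it lay, letter for letter, in an annotated processed pseudogene. Mitochondrially encoded mRNAs were not analysed here, and a few genes are not reported here. Named genes were Clic4 and Nnt, the 15 called protein-coding genes with the largest difference in each direction (mean of at least 10 CPM, no overlap between the groups), the 20 stable genes with the highest level per length, stable RPE list genes, and up to 4 members with the highest mean CPM of each gene list. Copied-sequence examples, genes called on a list, Mobp, Trf, Npc1, Fzd8 and others were chosen after their values were seen. The libraries, lists and tests were chosen with earlier results of these data known.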

Additional observations from a re-analysis of the deposited data

Results flagged for a closer look

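A single library stood apart from the rest of its group, by Dixon's ratio of the gap to the range (critical value 0.829 for 4 values and 0.568 for 7), in 21 of 208 groups of values examined. Chance flags about 1 in 20 of independent groups. These groups overlap, and some of their genes were chosen after their values were seen, so the count cannot be compared with that share. Ctrl-set KO 2 was highest, both over the 7 KO libraries and over the 4 of the Ctrl and CreCtrl sets, for the myeloid list (2627 CPM), the antigen presentation list (2097 CPM), Lyz2 (1271 CPM) and Fth1 (2891 CPM). Ctrl-set KO 1 was highest of the 7 for the inner retinal neuron list (92.3 CPM), Mobp (49.7 CPM) and Mbp (245 CPM). WT-set KO 1 was highest of the 7 for the stromal list (780 CPM).

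Among the 4 libraries of the Ctrl and CreCtrl sets, CreCtrl-set KO 1 was highest for the corneal and conjunctival list (156 CPM), Krt5 (51.8 CPM), Krt15 (49.6 CPM), Krt4 (20.3 CPM), Krt14 (13 CPM) and Asprv1 (4.44 CPM), and lowest for the lysosome list (14941 CPM). CreCtrl-set KO 2 was highest of the 4 for the fatty acid oxidation list (3156 CPM) and highest of the 7 for the chloride intracellular channel list (1766 CPM).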

How the results depend on the processing

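Size factors by RLE or library size alone kept each count of calls within 1.5 times its reported value. For the WT set against the other sets, DESeq2 gave 952 calls, each set as its own group 1013 (503 higher, 510 lower, against 108 and 403), the GC and length correction 0, the replicate block 0 (2742 genes at an unadjusted p under 0.05), and leaving out each library 0 to 728. For the WT set against the Ctrl set, DESeq2 gave 1454, every gene with at least 1 count 1740, the correction 402, the replicate block 515, removal of copied genes 383 and leaving out a library 430 to 851 (430 without WT-set KO 1, 485 without WT-set KO 2). For the WT set against the CreCtrl set, DESeq2 gave 717, every gene with at least 1 count 1125, only these sets 432, the correction 0 (1469 at an unadjusted p under 0.05), the replicate block 0 (2375) and leaving out a library 0 to 567 (0 without any WT-set KO library or CreCtrl-set KO 2, 75 without CreCtrl-set KO 1, 533 and 567 without Ctrl-set KO 1 and 2). For the Ctrl set against the CreCtrl set, DESeq2 gave 503, every gene with at least 1 count 821, removal of copied genes 22 and leaving out a library 185 to 536. Stable transcripts numbered 7538 and 532 under limits of 2 and of 5 to 4. With a library left out they numbered 3457 to 4417, a step that can only keep or raise the count. The correction and the removal of copied genes bear on why the counts moved only by their construction; other causes were not tested.

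Signs turned for Clic4 in the WT set against the other sets (-0.13, -0.1 and -0.03 without WT-set KO 1, Ctrl-set KO 1 and CreCtrl-set KO 1, range -0.13 to 0.43 with single libraries left out and 0.58 under the replicate block) and, in the Ctrl set against the CreCtrl set, for Actb (-0.15 to 0.25) and Fth1 (-0.27 to 0.95), at the lower end without Ctrl-set KO 2, and for Rplp1 (0.2) after the correction. None was called in these alternatives except Fth1 without Ctrl-set KO 1 (0.95, edgeR adjusted p = 0.00445). Each named gene under each alternative was counted as 1 result, so these are not numbers of genes. Of such results, 426 in the first comparison and 340 in the second kept direction and side of the threshold. Another 191 and 26 lost the call, 11 and 16 gained it and 3 and 3 turned sign. The replicate numbers do not pair the samples, since same-numbered libraries correlated between -0.109 and 0.155 in their deviations from the set means. Where an omission left 1 library in a set, that library was assumed to vary like the others. With 2 or 3 libraries a set, p-values rest on a spread pooled over sets, and genes at a few counts per library are limited by depth, most in the WT and Ctrl sets.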

Other observations

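Gene lists not yet described stood as follows over the 7 KO libraries. Basement membrane genes summed to 2630 to 2948 CPM and complement genes, mostly Clu, to 8581 to 10140 CPM, each within 1.18-fold. Epithelial junction genes summed to 645 to 791 CPM and circadian clock genes to 2207 to 2730 CPM. Of the 13 unfolded protein response genes tested, 1 was called lower in the WT set than in the other sets, the chaperone cofactor Dnajb9, beside 2.72% of all genes tested, and the list's median was 0.05. Nuclear noncoding RNAs summed to 1990 and 2086 CPM in the Ctrl-set KO libraries and to 809 to 1585 in the other 5. Malat1, the most abundant of them, read 853, 704 and 1058 CPM in the WT set, 1539 and 1515 in the Ctrl set and 864 and 530 in the CreCtrl set, and was not called in any of the 4 comparisons. Clic6, the most abundant chloride intracellular channel gene, read 1368, 1406 and 1296 CPM, then 1461 and 1283, then 1482 and 1719, a 1.34-fold range.

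Sterol genes differed between the Ctrl and CreCtrl sets in 1 of 24 members, Insig1, which holds back sterol synthesis, at 81.2 and 54.9 CPM against 133 and 160 (-1.11 on the log2 scale), beside 1.7% of all genes tested. Unprocessed pseudogenes summed to 683, 563 and 618 CPM in the WT set, 279 and 380 in the Ctrl set and 1302 and 837 in the CreCtrl set.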
